A study of Homo sapiens with 4 samples.

Results

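The genes described here make up the machinery with which a cell shows peptides to T cells, together with ligands that inhibit T cells or alert natural killer cells. There are 40 of them, chosen by gene name: MHC class I (6 genes), peptide processing and loading (11), MHC class II (8), the class II invariant chain with endolysosomal processing (5), their transactivators (5), checkpoint ligands (2) and ligands of the NKG2D receptor (3). All 40 had a probe set of their own, out of 18132 genes that did, and each gene is represented by its brightest such probe set over the 4 arrays.

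The values come from OE33 cells, a long-established line of human oesophageal adenocarcinoma. ARID1A knockdown cells received a pool of siRNAs against ARID1A, which encodes a subunit of the chromatin remodeller SWI/SNF, and mock cells received a pool of siRNAs with no target. Both were transfected at 50 nM with a lipid reagent, grown in 15% serum and harvested 48 hours later, with no interferon or other agent named in the labels. Each condition has 2 biological replicates, each on 1 Affymetrix PrimeView array, and the aim of the series was to find genes downstream of ARID1A through which its reduced expression could act in cancer. The cells are of 1 line and the knockdown is transient and partial. The values are on a log2 scale, so a difference of 1 stands for a doubling of signal, and their precision is limited by the 4 arrays.

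Class I molecules, a heavy chain paired with B2M, sit on most nucleated cells and carry peptides cut in the cytosol. The immunoproteasome cuts proteins into peptides, the TAP transporter brings these into the endoplasmic reticulum, ERAP1 and ERAP2 trim them, and tapasin (TAPBP) helps load them. Class II molecules carry peptides from the endolysosome and are made mainly by professional antigen-presenting cells, under the control of CIITA. Interferon-gamma raises most of these genes in epithelial cells through the factor IRF1 and its relatives, which bind the interferon-stimulated response element (ISRE), while STAT dimers bind the gamma-activated site (GAS).

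Promoters of 5 genes are shown because they belong to the genes on which the results below turn: 3 with higher values in knockdown cells and, for contrast, 2 with lower ones. Each is the window of 250 bases before to 50 bases after a transcription start in RefSeq, build GRCh38.p14, written in the direction of the gene. Capitals mark matches to the ISRE core GAAANNGAAA or to the GAS letters TTCNNNGAA on either strand. The windows are TAP1 at chr6:32853655-32853954 on the minus strand, PSMB9 at chr6:32853942-32854241 on the plus strand, PSMB10 at chr16:67936801-67937100 on the minus strand, TAP2 at chr6:32838690-32838989 on the minus strand and CD274 at chr9:5450292-5450591 on the plus strand.
TAP1: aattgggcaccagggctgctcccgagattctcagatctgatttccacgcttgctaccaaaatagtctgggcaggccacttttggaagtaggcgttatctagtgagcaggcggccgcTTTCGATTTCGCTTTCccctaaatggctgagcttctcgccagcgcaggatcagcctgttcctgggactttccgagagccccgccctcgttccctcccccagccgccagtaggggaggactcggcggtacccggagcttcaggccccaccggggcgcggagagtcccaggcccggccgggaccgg
PSMB9: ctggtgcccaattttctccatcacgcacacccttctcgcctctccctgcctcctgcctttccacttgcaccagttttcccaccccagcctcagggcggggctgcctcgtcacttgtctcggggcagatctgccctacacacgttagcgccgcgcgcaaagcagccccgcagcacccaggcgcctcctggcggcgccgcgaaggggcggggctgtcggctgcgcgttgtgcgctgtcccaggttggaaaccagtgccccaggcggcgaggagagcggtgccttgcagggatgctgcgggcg
PSMB10: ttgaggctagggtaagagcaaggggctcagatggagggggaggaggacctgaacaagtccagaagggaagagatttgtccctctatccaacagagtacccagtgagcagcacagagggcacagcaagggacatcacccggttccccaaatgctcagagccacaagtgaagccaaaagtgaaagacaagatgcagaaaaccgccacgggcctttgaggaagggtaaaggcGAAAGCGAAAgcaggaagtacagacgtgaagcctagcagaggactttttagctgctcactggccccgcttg
TAP2: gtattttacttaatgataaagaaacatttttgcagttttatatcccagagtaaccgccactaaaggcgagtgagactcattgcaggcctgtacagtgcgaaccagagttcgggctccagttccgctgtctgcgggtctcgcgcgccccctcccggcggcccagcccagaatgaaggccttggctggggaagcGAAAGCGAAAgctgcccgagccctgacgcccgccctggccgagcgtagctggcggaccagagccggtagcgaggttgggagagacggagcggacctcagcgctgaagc
CD274: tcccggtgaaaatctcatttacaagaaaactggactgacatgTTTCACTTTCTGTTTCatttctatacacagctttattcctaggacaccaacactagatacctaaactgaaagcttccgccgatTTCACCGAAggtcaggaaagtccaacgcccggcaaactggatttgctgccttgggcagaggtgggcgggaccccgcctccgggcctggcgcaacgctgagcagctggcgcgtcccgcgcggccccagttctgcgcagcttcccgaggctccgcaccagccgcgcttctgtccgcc

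TAP1 and PSMB9 are transcribed away from each other from starts 487 bases apart, and these windows share 13 bases. The window shown for TAP1 holds overlapping ISRE cores, that of PSMB10 and that of TAP2 hold 1 each, and that of CD274 holds overlapping ISRE cores and a GAS. Another RefSeq window of TAP1, chr6:32852712-32853011, is not shown and holds a GAS but no ISRE core. The window of PSMB9 holds neither an ISRE core nor a GAS. The ISRE cores shown for TAP1 lie between the starts of both genes, beyond the window of PSMB9. A promoter window was found for 33 of the 40 genes, 45 windows in all, of which 13 (28.89%) hold the ISRE core, against 1255 of 35116 promoters in the RefSeq table (3.574%). The GAS letters occur in 4 of the 45 windows (8.889%), against 7.657% of all promoters, and the CCAAT letters in 21 (46.67%), against 34.61%. The 3 motifs were searched on both strands, and a match describes the letters only.

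ARID1A, the targeted gene, was measured first as a check of the labels. Its brightest probe set read 7.53 and 7.53 in the knockdown arrays, against 9.28 and 9.33 in the mock arrays. The log2 change was -1.78 (95% confidence interval -1.96 to -1.60), which left 29.2% of the mock level (limma adjusted p = 0.0218). Of its 5 other probe sets 4 were lower too, each at an unadjusted p under 0.05. The mean over all its probe sets, which include dim ones, gave a log2 change of -1.07.

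None of the 40 genes passed the test, limma with p-values adjusted over all probe sets at a threshold of 0.05, which called 73 of 18132 genes (0.403%). The smallest adjusted p among them was 0.0935, for PSMB9. Their values nevertheless lay more often on one side: 32 were higher and 8 lower in knockdown cells, with a median log2 change of 0.09, against -0.00 over all genes. At an unadjusted p under 0.05, 9 genes (22.5%) were higher, against a background of 9.76% of all genes. These 9 were PSMB9, PSMB8, PSMB10, TAP1, ERAP1, TAPBP, PSME2, CD74 and RFX5. Only CD274 (2.5%) was lower by that measure, against a background of 7.25%. Without knockdown replicate 2, 4 genes (10%) were higher and 0 lower, against 5.65% and 4.36% of all genes. Without mock replicate 2, 4 (10%) were higher and 2 (5%) lower, against 5.23% and 4.29%. Without knockdown replicate 1, 7 (17.5%) were higher and 0 lower, against 7.30% and 6.59%.

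The groups could also be read by whether the arrays overlap. Both knockdown arrays stood above both mock arrays for 22 genes (55%), against 25.8% of all genes, and below them for 5 (12.5%), against 23.6%. The other 13 overlapped. Genes measured on the same 4 arrays are not independent readings. The median over the 40 genes was 8.57 and 8.59 in the knockdown arrays, against 8.42 and 8.34 in the mock arrays.

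The choice of fit decides whether any of these genes is called. When the prior for the spread was allowed to depend on brightness, 8 of the 40 passed, all higher in knockdown cells and all in peptide processing (PSMB8, PSMB9, PSMB10, PSME1, PSME2, TAP1, TAPBP and ERAP1, limma adjusted p from 0.00148 to 0.0422), while 8.63% of all genes passed in that fit. Among the 10614 genes in the brighter part of the array, 32 of the 40 remained and 4 passed (PSMB9, ERAP1, TAP1 and CD74, limma adjusted p from 0.0199 to 0.0469), while 9.20% of those genes passed. In that brighter part the share higher at an unadjusted p under 0.05 was 31.25% of the 32, against 17.4% of all. With replicate number as a block, none passed.

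**Figure D1:**
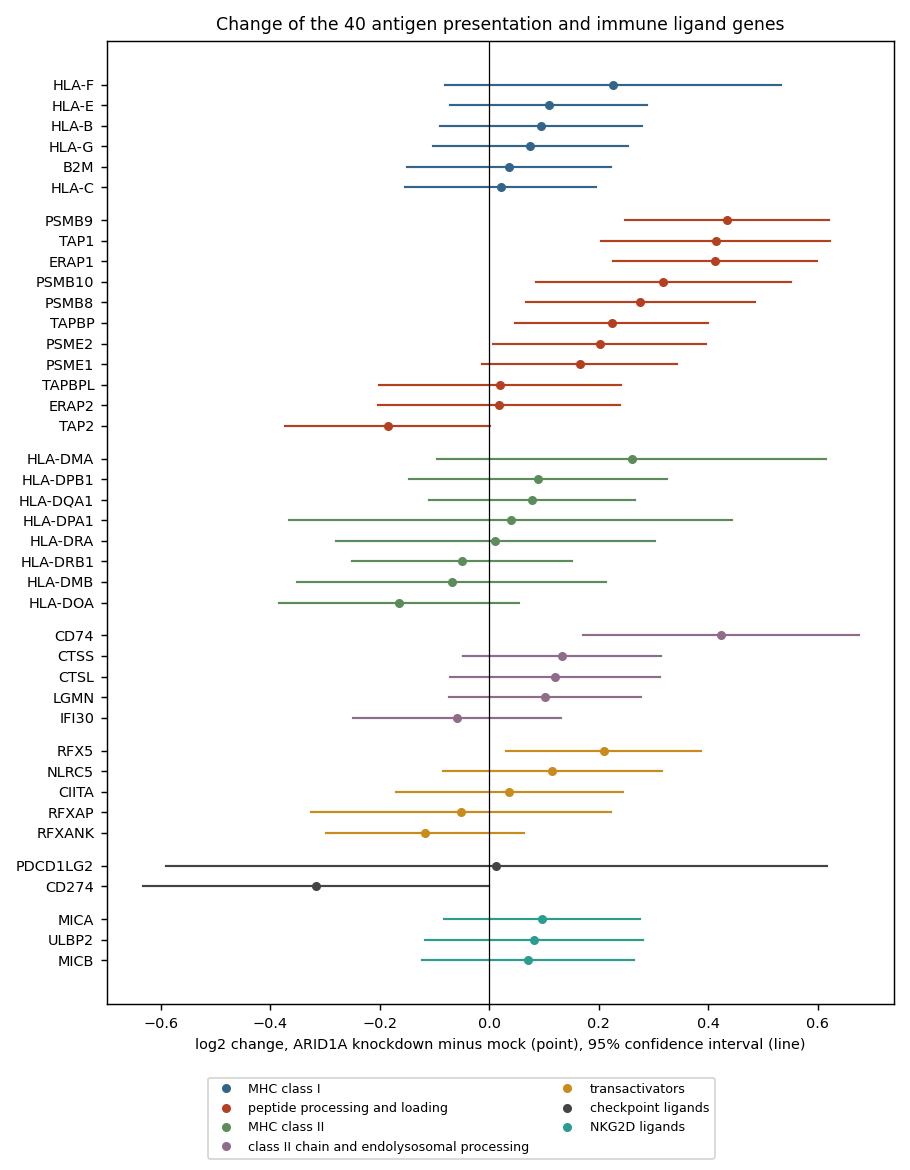
Log2 change of each of the 40 genes, ARID1A knockdown minus mock, at its brightest probe set (point) with the 95% confidence interval of limma (line), in colours by role. The peptide processing genes reach furthest to the right, up to 0.43 for PSMB9, while TAP2 (-0.19) and CD274 (-0.32) lie left of 0.

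Peptide processing and loading held 7 of the 9 genes that were higher at an unadjusted p under 0.05. These 7 are 63.6% of its 11 genes, and 0 were lower by that measure, against 9.76% and 7.25% of all genes. Of its 11 genes, 10 had a positive log2 change, with a median over the 11 of 0.22. For MHC class I 6 of 6 and for NKG2D ligands 3 of 3 were positive, with medians of 0.08 each. Of all genes 48.6% were positive. Knockdown and mock arrays did not overlap for 9 of the 11 peptide processing genes. Of the 11, 8 (72.7%) were higher in this way, against 25.8% of all genes. Lower was 1 (9.09%), TAP2, against 23.6%.

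The 3 catalytic subunits that turn a proteasome into an immunoproteasome all read higher. PSMB9 (LMP2) was at 10.27 and 10.29 in the knockdown arrays, against 9.89 and 9.80 in the mock arrays. Both knockdown arrays lie above both mock arrays, a log2 change of 0.43 (95% interval 0.25 to 0.62), or 1.35-fold (limma adjusted p = 0.0935). Its 2 other probe sets gave log2 changes of 0.43 and 0.11. PSMB10 (MECL-1) was at 10.42 and 10.51 in the knockdown arrays, against 10.24 and 10.06 in the mock arrays, a log2 change of 0.32 (limma adjusted p = 0.205). PSMB8 (LMP7) was at 11.25 and 11.31 in the knockdown arrays, against 11.07 and 10.94 in the mock arrays, a log2 change of 0.28 (limma adjusted p = 0.215). In both genes the 2 groups are separate, and both other probe sets of each gave positive changes, from 0.19 to 0.20 for PSMB10 and from 0.10 to 0.37 for PSMB8.

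The constitutive subunits that these replace had smaller differences. PSMB5, PSMB6 and PSMB7 had log2 changes of 0.06, 0.14 and 0.05 (limma adjusted p from 0.409 to 0.811), and were compared after the values of the other 3 had been seen. The log2 ratio of PSMB9 to PSMB6 was -1.76 and -1.78 in the knockdown arrays, against -2.05 and -2.07 in the mock arrays, a difference of 0.29. It was 0.27 for PSMB10 over PSMB7 and 0.22 for PSMB8 over PSMB5. In all 3 pairs the knockdown arrays lie above the mock arrays. The two-sided exact permutation p was 0.333 for each, the smallest that 2 arrays against 2 can give.

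The proteasome activator PA28, made of PSME1 and PSME2, opens the gate of the proteasome core. PSME2 was at 11.20 and 11.22 in the knockdown arrays, against 11.07 and 10.95 in the mock arrays, a log2 change of 0.20 (limma adjusted p = 0.295). PSME1 was at 11.20 and 11.25 in the knockdown arrays, against 11.07 and 11.05 in the mock arrays, a log2 change of 0.17 (limma adjusted p = 0.338). Both partners were separate from mock, at 1.15-fold and 1.12-fold.

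The paired subunits of the peptide transporter had changes of opposite sign. TAP1 was at 9.92 and 9.96 in the knockdown arrays, against 9.60 and 9.45 in the mock arrays, a log2 change of 0.41 (95% interval 0.20 to 0.62, limma adjusted p = 0.119). Its other probe set gave 0.31. TAP2, its obligate partner, was at 9.12 and 9.21 in the knockdown arrays, against 9.34 and 9.37 in the mock arrays, a log2 change of -0.19 (95% interval -0.37 to 0.00, limma adjusted p = 0.313). All 4 probe sets of TAP2 read lower, from -0.19 to -0.15, and in each the groups are separate. In RefSeq order TAP2, PSMB8, TAP1 and PSMB9 are consecutive genes on chromosome 6, so TAP2 stands beside 3 genes with higher values.

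Trimming and loading factors were mixed. ERAP1, the aminopeptidase that shortens peptides to fit class I, was at 8.62 and 8.67 in the knockdown arrays, against 8.27 and 8.20 in the mock arrays. The groups are separate, with a log2 change of 0.41 (95% interval 0.23 to 0.60, limma adjusted p = 0.101), and 3 of its 4 other probe sets were also positive. The mean of all its probe sets, which run down to -0.14, gave 0.23. Its neighbour ERAP2 was at 9.70 and 9.85 in the knockdown arrays, against 9.81 and 9.70 in the mock arrays, so the arrays overlap and the log2 change was 0.02. TAPBP was at 10.21 and 10.24 in the knockdown arrays, against 10.00 and 9.99 in the mock arrays, a log2 change of 0.22 (limma adjusted p = 0.228). Only 2 of its 4 other probe sets were positive, and the mean of all gave 0.14. For the tapasin relative TAPBPL the brightest probe set gave 0.02 with overlapping arrays, and its other one gave 0.35, so the 2 disagree in size.

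**Figure D2:**
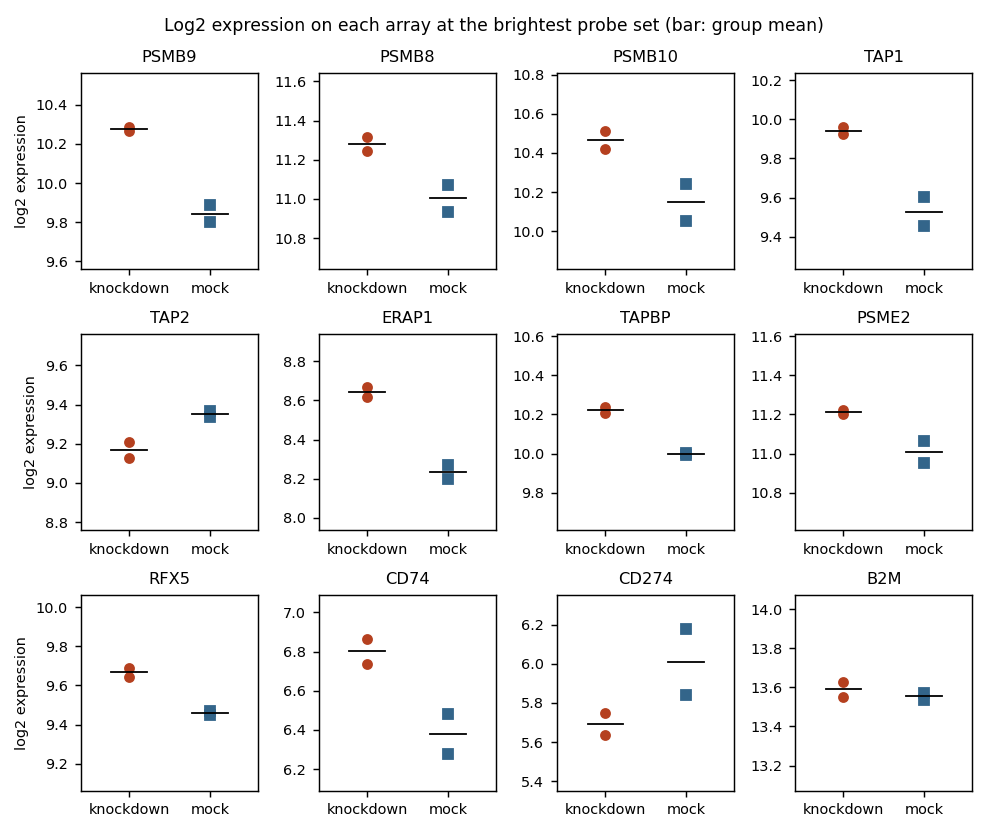
Log2 expression of 12 of the genes on each array (circles knockdown, squares mock, bars the group means), each panel spanning 1 log2 unit. Knockdown arrays lie above mock arrays in 9 panels and below them for TAP2 and CD274, and the arrays overlap for B2M.

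The class I molecules that these peptides are loaded on differed little. B2M, the light chain shared by all of them, was at 13.55 and 13.63 in the knockdown arrays, against 13.57 and 13.53 in the mock arrays, and the groups overlap. Its log2 change was 0.04 (95% interval -0.15 to 0.22), and its 7 other probe sets lay between -0.01 and 0.04, a pair of them with identical values. HLA-B was at 11.57 and 11.62 in the knockdown arrays, against 11.47 and 11.54 in the mock arrays, a log2 change of 0.09 (95% interval -0.09 to 0.28, limma adjusted p = 0.588). HLA-C was at 12.34 and 12.34 in the knockdown arrays, against 12.32 and 12.31 in the mock arrays, a log2 change of 0.02 (95% interval -0.15 to 0.20). For both the arrays separate, by less than the width of these intervals. Other probe sets gave 0.07 and 0.08 for HLA-B, and -0.01 and 0.07 for HLA-C.

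The nonclassical molecules engage inhibitory receptors. HLA-F had a log2 change of 0.23 (95% interval -0.08 to 0.53), but its 9 other probe sets ran from -0.23 to 0.26. It was 0.07 without mock replicate 2, 0.38 without mock replicate 1 and 0.04 with the mean of all its probe sets. HLA-E, the ligand of NKG2A on natural killer cells, had 0.11, and all 5 of its other probe sets were higher as well, from 0.13 to 0.25. HLA-G had 0.07, with others from -0.22 to 0.03. Over all 6 class I genes the median log2 change was 0.08, and none was under 0.05 by unadjusted p. In 5 (83.3%) both knockdown arrays lay above both mock arrays, against 25.8% of all genes. The probe sets of 4 of the 6 are of the kind (_s_at or _x_at) that can match transcripts of related genes, so single HLA genes cannot be told apart with certainty.

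**Figure D3:**
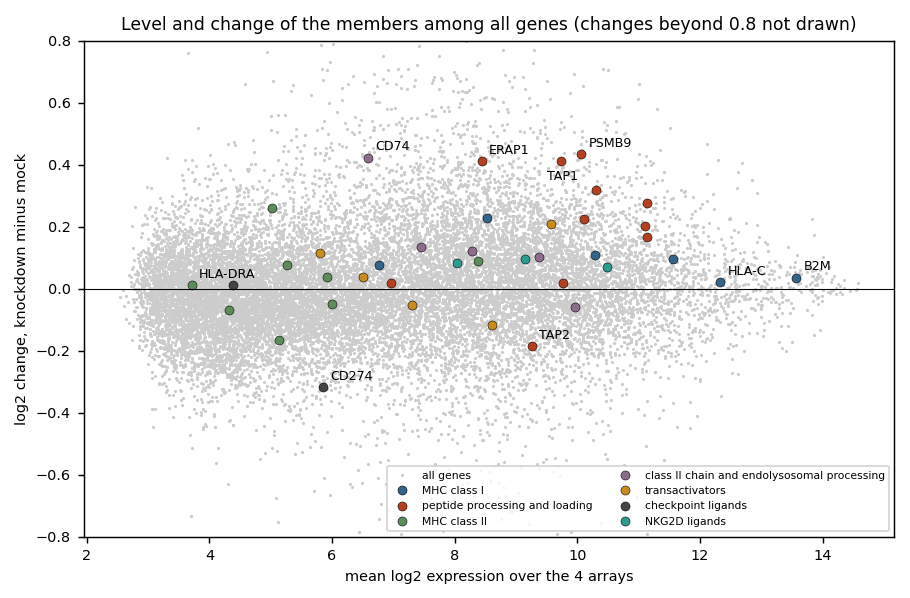
Mean log2 signal over the 4 arrays (horizontal axis) and log2 change, knockdown minus mock (vertical axis), for all genes (grey) and the 40 genes (coloured by role), with changes beyond 0.8 in either direction not drawn. B2M and HLA-C are the brightest of the 40 and lie near 0, most of the peptide processing genes lie above it, and most class II genes sit in the dim part at the left.

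MHC class II genes gave no common direction. Of 8 genes, 5 had positive and 3 negative log2 changes, with a median of 0.03. Arrays overlapped for 6 of the 8, against 9176 of all 18132 genes. In 5 of the 8 the brightest probe set was dimmer than the median probe set of the array, where changes are understated. HLA-DRA, the alpha chain of HLA-DR, was at 3.68 and 3.76 in the knockdown arrays, against 3.56 and 3.86 in the mock arrays, which overlap. Its log2 change was 0.01 (95% interval -0.28 to 0.30), and its 2 other probe sets gave 0.00 and 0.14. The extremes were HLA-DMA at 0.26 and HLA-DOA at -0.17 (limma adjusted p = 0.434 and 0.421). Leaving out 1 array moved HLA-DMA to between 0.11 (without knockdown replicate 2) and 0.41 (without knockdown replicate 1), and HLA-DOA to between -0.25 (without mock replicate 1) and -0.08 (without mock replicate 2). These encode a chain of the peptide exchanger HLA-DM and a chain of its inhibitor HLA-DO.

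CD74, the invariant chain that guards the class II groove, stood apart from the class II genes. It was at 6.73 and 6.87 in the knockdown arrays, against 6.48 and 6.28 in the mock arrays. The groups are separate, with a log2 change of 0.42 (95% interval 0.17 to 0.67), or 1.34-fold (limma adjusted p = 0.152). All 4 of its other probe sets were positive, from 0.16 to 0.38. The endolysosomal enzymes had smaller changes: the proteases CTSS, CTSL and LGMN had log2 changes of 0.13, 0.12 and 0.10, and the thiol reductase IFI30 of -0.06. Among related genes outside the 40, the protease CTSB had 0.34 and CTSH -0.26 (limma adjusted p = 0.145 and 0.212), and CTSD and HLA-DOB were not under 0.05 by unadjusted p.

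**Figure D4:**
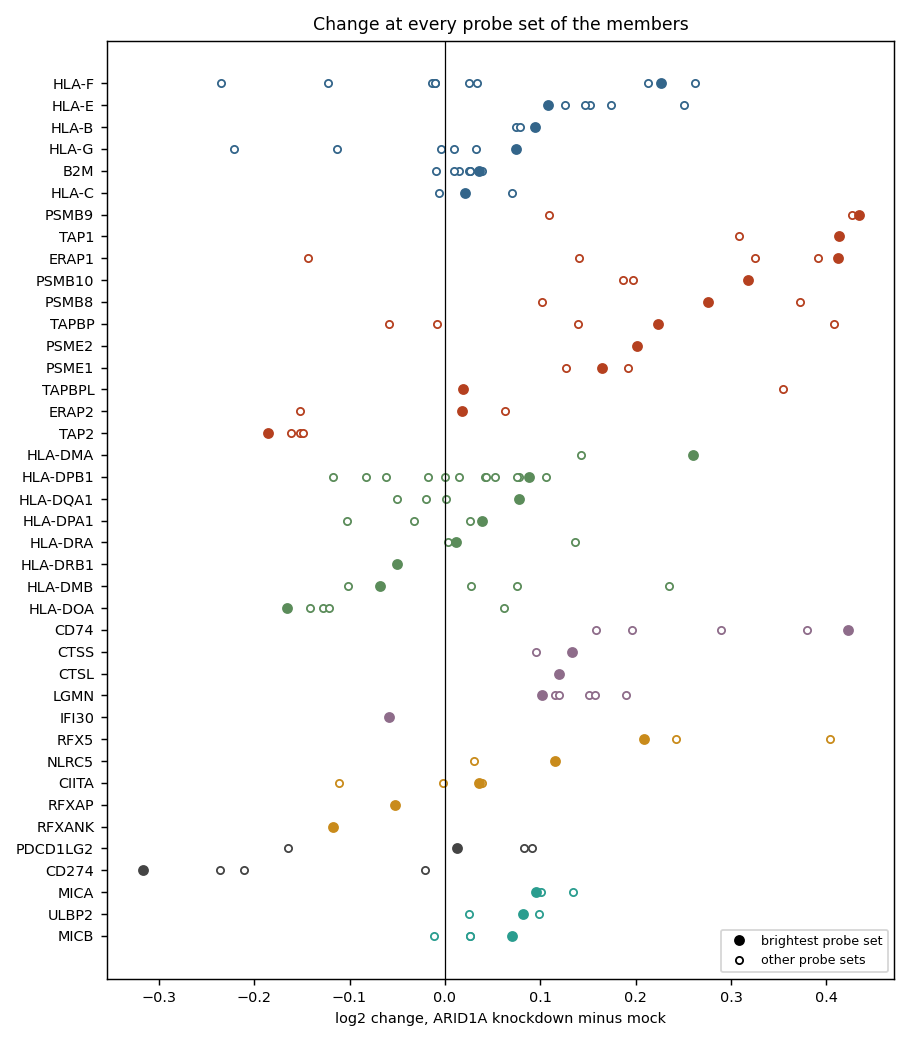
Log2 change, knockdown minus mock, at each of the 151 probe sets paired with 1 of the 40 genes alone (filled, brightest; open, others), by gene in the order of the roles. All points of PSMB8, PSMB9, PSMB10, TAP1, CD74, HLA-E and RFX5 lie right of 0 and all of TAP2 and CD274 left of it, while those of HLA-F, HLA-G and HLA-DPB1 lie on both sides.

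Of the 151 probe sets of these genes, 106 gave a positive and 45 a negative log2 change. At an unadjusted p under 0.05, 19 (12.6%) were higher, against 9.23% of all probe sets paired with 1 gene, and 4 (2.65%) lower, against 7.09%. None passed after adjustment. Probe sets of 1 gene share their transcripts and are not separate replicates.

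The transactivators that switch class I and class II genes on were mostly flat. CIITA, the master regulator of class II, was at 6.51 and 6.53 in the knockdown arrays, against 6.41 and 6.56 in the mock arrays, which overlap, and its log2 change was 0.04 (95% interval -0.17 to 0.24). NLRC5, its counterpart for class I, was at 5.87 and 5.84 in the knockdown arrays, against 5.67 and 5.80 in the mock arrays, a log2 change of 0.12 (95% interval -0.08 to 0.32). Other probe sets ran from -0.11 to 0.04 for CIITA, and the other 1 of NLRC5 gave 0.03. Of the RFX complex that both need at the promoter, RFX5 was at 9.64 and 9.69 in the knockdown arrays, against 9.47 and 9.45 in the mock arrays. Its groups are separate, its log2 change was 0.21 (limma adjusted p = 0.251), and its other probe sets gave 0.24 and 0.40. Its partners RFXAP and RFXANK had -0.05 and -0.12. Among the 4 NF-Y and CREB partners of this complex, CREB1 alone was under 0.05 by unadjusted p (log2 change -0.22, limma adjusted p = 0.263), with other probe sets from -0.48 to 0.24.

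Genes of interferon-gamma signalling, which lie upstream of this machinery, read higher as well. Of 8 listed, 7 were measured, all with positive log2 changes and with a median of 0.22. At an unadjusted p under 0.05, 5 of the 7 (71.4%) were higher and 0 lower, against 9.76% and 7.25% of all genes. After adjustment limma called none of the 7. IFNGR1, the ligand-binding receptor chain, was at 10.76 and 10.74 in the knockdown arrays, against 10.21 and 10.23 in the mock arrays. The groups are separate, with SDs of 0.00962 in knockdown and 0.0136 in mock cells (n = 2 each), at a log2 change of 0.53 (95% interval 0.35 to 0.70), or 1.44-fold (limma adjusted p = 0.0630). IRF1, the factor that acts on class I promoters, was at 9.49 and 9.55 in the knockdown arrays, against 9.11 and 9.10 in the mock arrays, a log2 change of 0.42 (limma adjusted p = 0.0934). Of the 3 other probe sets of IRF1 only 2 were positive, and the 3 ran from -0.04 to 0.68.

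The others of that list were smaller or less separate. IRF2, a relative of IRF1 that binds the same element, had a log2 change of 0.39 (limma adjusted p = 0.139), and the kinases JAK1 and JAK2 of the receptor had 0.22 each (limma adjusted p = 0.238 and 0.260). The second receptor chain, IFNGR2, had 0.05 and the feedback inhibitor SOCS1 had 0.11, both with overlapping arrays. The ISRE core occurs in a promoter window of 7 of the 9 genes higher at an unadjusted p under 0.05, which are all those but PSMB9 and CD74. It occurs as well in those of TAP2 and CD274, which read lower, of HLA-F and PSME1, whose knockdown arrays both lie above mock, and of B2M and ERAP2, which overlap. Whether interferon signalling has a part in these values was not tested.

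**Figure D5:**
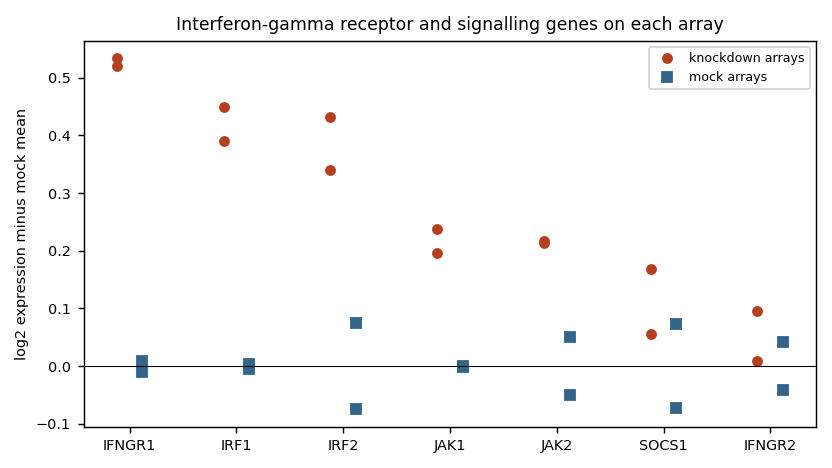
Log2 expression of 7 interferon-gamma receptor and signalling genes on each array, minus the mean of the mock arrays (circles knockdown, squares mock). The knockdown arrays of IFNGR1, IRF1, IRF2, JAK1 and JAK2 lie above both mock arrays, and those of SOCS1 and IFNGR2 overlap with them.

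Chaperones that fold and load class I read the other way or were flat. Of 4 listed, CALR (calreticulin) had a log2 change of -0.21 and HSPA5 (BiP) of -0.19, both under 0.05 by unadjusted p (limma adjusted p = 0.258 and 0.294). These are 50% of the 4, against 7.25% of all genes that were lower by that measure. The other probe set of CALR gave -0.06 and the 5 others of HSPA5 ran from -0.17 to -0.09, with 0 of them under 0.05. CANX had -0.10 and PDIA3 0.04. These 4 are general chaperones of the endoplasmic reticulum and serve many other proteins.

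CD274 (PD-L1), the ligand that restrains T cells through PD-1, was the one gene among the 40 lower at an unadjusted p under 0.05. It was at 5.75 and 5.63 in the knockdown arrays, against 6.18 and 5.84 in the mock arrays. The groups are separate by a narrow margin, with a log2 change of -0.32 (95% interval -0.63 to -0.00), or 80.3% of mock (limma adjusted p = 0.308). Its log2 change was -0.15 without mock replicate 1, -0.48 without mock replicate 2 and -0.20 with the mean of all its probe sets. All 3 other probe sets were negative, from -0.24 to -0.02. Its relative PDCD1LG2 (PD-L2) was at 4.38 and 4.40 in the knockdown arrays, against 4.77 and 3.99 in the mock arrays, a spread between mock arrays that leaves its log2 change of 0.01 undetermined (95% interval -0.59 to 0.62).

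Ligands of NKG2D, the activating receptor by which natural killer cells find stressed cells, differed by less than their intervals. MICA was at 9.20 and 9.19 in the knockdown arrays, against 9.12 and 9.07 in the mock arrays, a log2 change of 0.10 (95% interval -0.08 to 0.27). MICB was at 10.50 and 10.54 in the knockdown arrays, against 10.50 and 10.40 in the mock arrays, a log2 change of 0.07 (95% interval -0.12 to 0.26). ULBP2 was at 8.02 and 8.12 in the knockdown arrays, against 8.03 and 7.95 in the mock arrays, a log2 change of 0.08 (95% interval -0.12 to 0.28). Other probe sets ran from 0.10 to 0.13 for MICA, -0.01 to 0.03 for MICB and 0.03 to 0.10 for ULBP2. Of 14 other immune ligands listed, among them CD276, CD80, PVR and ICAM1, 10 (71.4%) had positive changes, against 48.6% of all genes. CD47, the signal that stops phagocytes, was the only one under 0.05 by unadjusted p, at a log2 change of 0.23 (limma adjusted p = 0.247). Both other probe sets of CD47 were negative, at -0.13 and -0.01.

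Measures of the whole arrays stand beside these results. The epithelial markers EPCAM, KRT8, KRT18, KRT19 and CDH1 were all bright, with no group mean under 12.0. Of 10 markers of leukocytes and antigen-presenting cells 9 were measured, at group means from 3.10 to 7.62. At their brightest probe sets 8 of the 9 had negative changes, that of ITGAM only -5e-06. Positive was 1 (11.1%), against 48.6% of all genes. The pan-leukocyte marker PTPRC, the dimmest of the 9, averaged 3.26 in knockdown and 3.10 in mock cells. That is the 5.52th percentile of all tested probe sets by brightness, and PTPRC was the only 1 of the 9 that read higher at its brightest probe set. Other probe sets ran from -0.18 to 0.36 for ITGAX and from -0.002 to 0.35 for MS4A1. The brightest were ITGAX (7.43 in knockdown, 7.62 in mock cells) and TYROBP (7.38 and 7.43), at the 69.5th and 68.1th percentiles. Fibroblast markers lay between 2.78 and 5.64 and endothelial markers between 4.41 and 6.14. All 4 endothelial ones were lower in knockdown cells with no overlap of the arrays, against 23.6% of all genes. At an unadjusted p under 0.05, 3 of these 4 (75%) were lower, against 7.25% of all genes. Of the 6 fibroblast markers 1 (16.7%) was lower by that measure, DCN, at a log2 change of -0.44 (limma adjusted p = 0.0934). The 3 other probe sets of DCN were positive, from 0.08 to 0.20. The 3′ over 5′ log2 difference of beta-actin, a measure of RNA integrity, was 1.21 and 1.10 in the knockdown arrays, against 1.04 and 0.995 in the mock arrays, so it moved with the condition. That of GAPDH was 0.201 and 0.215 in the knockdown arrays, against 0.199 and 0.211 in the mock arrays. The part of RNA integrity in the changes above was not tested.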

How the data were processed

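Total RNA of 2 ARID1A knockdown and 2 mock cultures was measured on 1 array each. The deposited table gives a log2 value for every probe set on every array. RMA and Partek are named, without versions, in the submitters' processing notes, with no role given. The log2 scale was inferred from that name and the range of the values. RMA sets the arrays to a common distribution, which hides any change in the total amount of mRNA, and changes of dim probe sets are understated.

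Of 49372 probe sets, 79 controls were left out. Of the 49293 tested, 44988 were paired with 1 gene by the platform annotation, 1832 with several and 2473 with none. Knockdown was compared with mock by limma 3.58.1 (lmFit, eBayes, R 4.3.3), two-sided, with Benjamini-Hochberg adjustment over all 49293. Residual degrees of freedom were 2, and the prior added 3.62. All adjusted p-values come from it unless another fit is named. Group labels give replicate numbers but do not say that equal numbers share a culture or day, and no pairing was used.

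The 40 genes, the pathway and marker lists and the tests were chosen with earlier results of these data known, so no list was tested. The 40 genes together are described by their counts and median beside those of all genes. Smaller lists are described by counts, some of them with a median or with the shares of all genes. ARID1A, each of the 40 with an unadjusted p under 0.05 and a few others named in the design (among them B2M, HLA-B, HLA-C, HLA-DRA, CIITA, NLRC5, MICA, MICB and ULBP2) are given by array, with their other probe sets where they have any. TAP2, PSME1, ERAP2, PDCD1LG2 and the constitutive proteasome subunits were added after their values were seen. Promoter sequences are RefSeq's. The procedure was tested on simulated data. The alternatives tried were other scalings, filters on dim or cross-matching probe sets, a variance trend, the mean of all probe sets of a gene, replicate blocks and leaving out each array.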

Additional observations from a re-analysis of the deposited data

How the results depend on the processing

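The log2 change of ARID1A stayed between -1.80 and -1.75 when each array was left out in turn, with limma adjusted p from 0.244 to 0.521, and at -1.78 with a replicate block (adjusted p = 0.217) or with the block crossed (0.187), a pairing added after seeing the data because the replicate differences of the groups correlated at -0.20. With the mean of all probe sets it was -1.07. In the fits with a block or with 1 array left out 0 genes were called, since fewer residual degrees of freedom remain. Genes called were 286 with each array centred on its median, 137 after quantile normalization, 977 among bright probe sets, 12 without cross-matching probe sets, 1565 with a variance trend and 356 with the mean of all probe sets of a gene, against 73. Of the 40 genes, 4 were called among bright probe sets and 8 with the variance trend, otherwise 0. The number higher at an unadjusted p under 0.05 was 5 of 31 (16.1%, against 9.21% of all genes) without cross-matching probe sets. It was 4 to 9 (10% to 22.5%) with 1 array left out, against 5.23% to 8.05% of all genes. The number lower was 2 with the variance trend, 2 with the mean of all probe sets, 0 with the crossed block and 0 to 2 with 1 array left out. The median log2 change of the 40 was 0.06 after quantile normalization (0.0611), 0.0593 with the mean of all probe sets and 0.0772 to 0.105 with 1 array left out. Signs turned for 11 genes, all with a main change of 0.08 or less in size, and the cause was not tested: TAPBPL (-0.0067) and ERAP2 (-0.0117) after quantile normalization, HLA-DMB (0.0268) and MICB (-0.0119) without cross-matching probe sets, and HLA-G (-0.0370), ERAP2 (-0.0238), HLA-DMB (0.0334), HLA-DPA1 (-0.0173) and CIITA (-0.0096) with the mean of all probe sets. With 1 array left out, the changes ran from -0.180 to 0.259 for HLA-DPA1, -0.166 to 0.0616 for RFXAP, -0.0551 to 0.0905 for ERAP2, -0.141 to 0.163 for HLA-DRA, -0.116 to 0.0167 for HLA-DRB1, -0.0723 to 0.110 for TAPBPL, -0.0386 to 0.111 for CIITA, -0.208 to 0.0713 for HLA-DMB and -0.376 to 0.402 for PDCD1LG2. The other 29 of the 40 kept their sign in the 12 settings, where they had a probe set left, but 12 of the 29 moved by over 1.5 times with 1 array left out and 9 with the mean of all probe sets. Dim probe sets, 8 of the 40, limit what can be seen for most class II genes.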
